A study of Mus musculus with 177 samples.

Results

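The 6 Slitrk genes (Slitrk1 to Slitrk6) and their partner receptor genes Ptprd and Ptprs were followed after hypoxia and reoxygenation in 3 organs of the newborn mouse, the lung, the brain and the eye. The 8 genes were taken from the 19937 genes that had at least 1 probe set annotated to a single gene symbol. For each gene the probe set of the highest mean in a tissue was used, and this was the same probe set in every tissue. Only Slitrk2 had another probe set, so that 9 of the 34760 probe sets on the array belonged to these genes. The genes were chosen because Slitrk6 and the receptors were lower in hypoxia-exposed lungs, so their lung hypoxia values are given as a description with no test.

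Slitrk proteins are single-pass membrane proteins whose outer part carries leucine-rich repeats, as in the Slit proteins, and whose inner tail resembles that of Ntrk neurotrophin receptors. On neurons they sit mainly on the postsynaptic side and bind LAR-type receptor tyrosine phosphatases on the presynaptic side, and this contact promotes synapse formation. Ptprd and Ptprs encode such phosphatases (PTPdelta and PTPsigma), and both are also made outside the nervous system, where they take part in cell adhesion. Slitrk6 is the family member best known outside the brain, in the sensory epithelium of the inner ear, in the eye and in epithelial and mesenchymal organs.

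C57BL/6 mice at postnatal day 7 were used, and the study text counts 62 animals. In 4 groups the mice breathed 8% oxygen (FiO2 0.08) for 120 min and then 21, 40, 60 or 100% oxygen for 30 min (groups H21, H40, H60 and H100). In the control groups air (FiO2 0.21) for 120 min was followed by 21 or 100% oxygen for 30 min (N21 and N100). Air was then breathed for 150 min in all 6 groups until the organs were collected, so all values come from that single late time. Whole tissue was measured on single-colour Affymetrix arrays with 61 lung, 59 brain and 57 eye samples. The extraction protocol in the labels, Ficoll centrifugation followed by a kit meant for blood, does not match solid tissue, and the labels do not say which lung, brain and eye came from the same animal.

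Values are log2 RMA signals, a robust average over the probes of a probe set after quantile normalisation, and a difference of 1 equals a 2-fold change. The array lists no counts, so the precision is set by the number of arrays. The tissue labels were checked against marker genes. The lung epithelial markers averaged 11.19 in the median lung array against 5.53 in brain and 5.58 in eye, the neuronal markers 11.09 in brain against 6.11 in lung, and the lens markers 12.88 in eye against 5.29 in lung. Among all arrays, 3 had the profile of another tissue than their label: the lung H40 replicate 10 array matched brain, the brain H40 replicate 7 array matched eye, and the eye H40 replicate 9 array matched lung. The Slitrk values went with the profile, for example Slitrk1 at 8.41 and Slitrk6 at 5.21 in the array labelled lung. These arrays were left out unless stated, which left 60 lung, 58 brain and 56 eye arrays. Among the remaining lung arrays, H21 replicate 1 stood apart, with a correlation of 0.938 with the mean lung profile against 0.975 for the next lowest array and a median of 0.989. The lung hypoxia differences of Slitrk6, Ptprd and Ptprs and the lung correlations of Slitrk genes with receptors are given with and without it.

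Sequences upstream of Slitrk6 and Ptprs are shown because these genes differed in hypoxic lung and their promoter windows held the core of the hypoxia response element. RefSeq promoter windows (GRCm38.p6) were matched for 6 of the 8 genes, with 8 windows in all; Ptprd and Slitrk4 were not matched. Both sequences run 5′ to 3′ on the minus strand and end at the annotated gene boundary. Slitrk6 lies at chr14:110747338-110755204 and its stretch at chr14:110755205-110755399. Ptprs lies at chr17:56412426-56476561 and its stretch at chr17:56476562-56476730. Capitals mark matches to ACGTG, the element's core, on either strand (CACGT on the strand shown).
Slitrk6 upstream: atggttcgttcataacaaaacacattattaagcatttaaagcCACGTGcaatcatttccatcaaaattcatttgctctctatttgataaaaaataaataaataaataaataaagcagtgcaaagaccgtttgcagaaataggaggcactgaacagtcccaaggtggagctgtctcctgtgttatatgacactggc
Ptprs upstream: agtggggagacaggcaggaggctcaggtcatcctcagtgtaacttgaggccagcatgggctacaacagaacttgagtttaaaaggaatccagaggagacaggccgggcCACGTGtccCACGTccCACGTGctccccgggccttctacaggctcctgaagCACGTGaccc

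The Slitrk6 stretch of 195 bases held 1 copy of CACGTG, the palindromic E-box, which contains ACGTG on both strands. The Ptprs stretch of 169 bases held 3 copies of CACGTG and 7 matches to ACGTG counted over both strands. ACGTG also occurred 2 times upstream of Slitrk1 and 1 time in the Slitrk5 window. The windows of Slitrk2 and Slitrk3 and the other Ptprs window held none. These windows and that of Slitrk5 lie inside the annotated span of their gene and not upstream of it. Over all 32851 windows of 250 upstream bases, 16.6% held ACGTG and 6.02% held CACGTG. These matches describe the letters only.

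The family split by tissue. Of the 8 genes, 7 had their highest mean signal in brain, though for Ptprd brain was above lung by only 0.19. Slitrk6 was the exception, with its highest mean in eye and its lowest in brain. The share of all genes with their highest mean in brain was not counted, so the 7 are a description. Tissues were treated as normalised separately, so levels across tissues are set side by side without a test, and levels of different genes are not compared because each probe set has its own response. The count of 7 was the same when all arrays were normalised together and when the arrays of another tissue were kept.

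Slitrk1, a neuronal gene in which rare human variants have been studied in Tourette syndrome, averaged 9.04 ± 0.30 (SD, n = 58) in brain, 6.42 ± 0.33 (n = 56) in eye and 4.95 ± 0.27 (n = 60) in lung. The lowest brain array, at 8.16, was above the highest eye array, at 7.08, and every eye array but 2 lay above the lung range, which ended at 5.61. Slitrk3, which pairs with Ptprd at inhibitory synapses, had a similar order, with 8.49 ± 0.26 in brain, 6.48 ± 0.26 in eye and 4.55 ± 0.26 in lung, and its ranges in the tissues did not overlap. Slitrk2, a gene of excitatory synapses, was close in brain and eye, at 7.93 ± 0.15 and 7.45 ± 0.23, and its brain range of 7.59 to 8.25 overlapped the eye range of 6.92 to 7.93. In lung Slitrk2 averaged 4.74 ± 0.19. The other Slitrk2 probe set read lower in every tissue, with means of 7.51 in brain, 6.76 in eye and 3.56 in lung, and kept the order. Across arrays the Slitrk2 probe sets correlated at r = 0.63 in eye, 0.42 in brain and 0.02 in lung, so they did not vary together in lung.

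Slitrk4, which lies on the X chromosome like Slitrk2, averaged 8.25 ± 0.25 in brain, 6.39 ± 0.19 in eye and 5.45 ± 0.21 in lung. Slitrk5, whose loss in mice causes compulsive grooming, averaged 8.86 ± 0.19 in brain, 7.09 ± 0.11 in eye and 6.50 ± 0.17 in lung, and the lung and eye ranges met at 6.87. Slitrk1 to Slitrk4 in lung, Slitrk4 in eye and Slitrk6 in brain were in the dimmest 40% of genes of that tissue, so a change in them could have been missed.

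Slitrk6 averaged 7.37 ± 0.36 in eye, 6.94 ± 0.67 in lung and 5.84 ± 0.39 in brain. Its lung spread was the widest of any of the 8 genes in any tissue, from 4.71 to 8.10. Ptprd averaged 10.07 ± 0.25 in brain, 9.88 ± 0.42 in lung and 9.18 ± 0.26 in eye, and the brain and lung ranges of 9.43 to 10.61 and 8.97 to 10.68 overlapped almost fully. The brain minus lung difference of Ptprd was 0.19, and 0.05 when all arrays were normalised together. Ptprs averaged 10.79 ± 0.19 in brain, 10.28 ± 0.25 in eye and 9.53 ± 0.18 in lung.

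**Figure D1:**
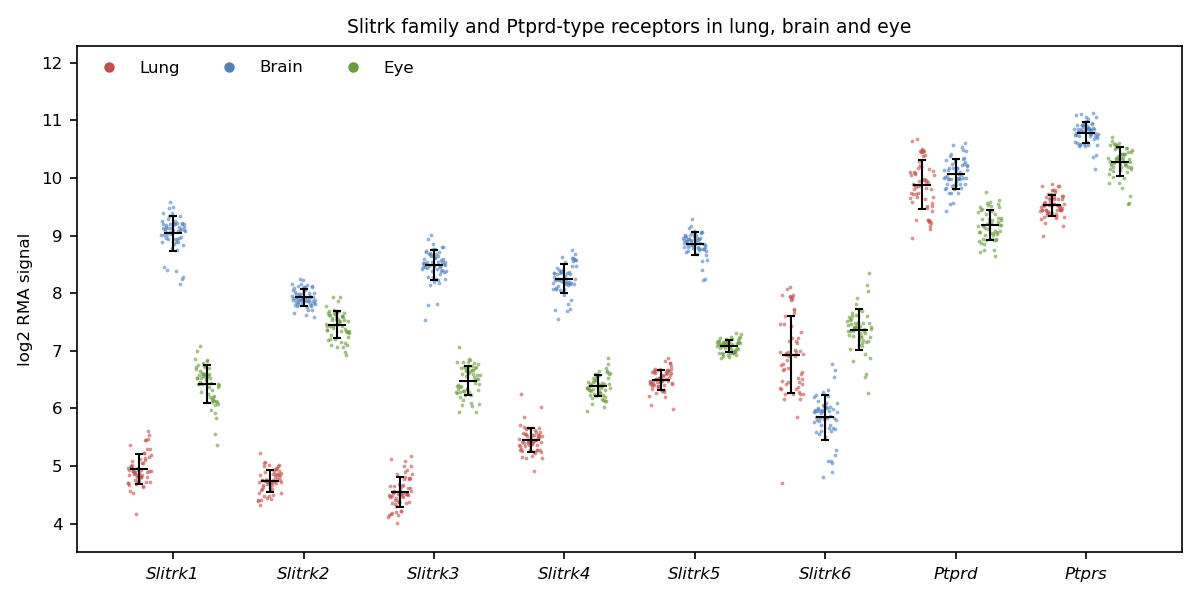
Log2 RMA signal (y axis) of each of the 8 genes in lung, brain and eye; each point is an array, the bar is the mean and the whiskers are 1 SD. Slitrk1 to Slitrk5 sit highest in brain, Slitrk6 sits lowest in brain, at 5.84, and the lung and brain ranges of Ptprd overlap.

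In lung, Slitrk6 and both receptors were lower after hypoxia, and the other 5 Slitrk genes differed by -0.05 to 0.05 on the log2 scale. The values below chose the genes and carry no test. In the normoxic lungs Slitrk6 ran from 6.25 over a median of 7.32 to 7.97 in N21 (n = 9) and from 7.003 over 7.89 to 8.10 in N100 (n = 10). After hypoxia it ran from 4.71 over 6.60 to 7.47 in H21 (n = 9), from 5.84 over 6.63 to 7.61 in H40 (n = 9), from 6.38 over 6.77 to 8.06 in H60 (n = 12) and from 6.17 over 6.53 to 7.97 in H100 (n = 11). Every hypoxia median lay below both normoxia medians, and the groups overlapped. Of the 41 hypoxic lungs, 39 were below the normoxia median, 6 were below the lowest normoxic lung and 0 were above the highest.

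The Slitrk6 means were 7.33 ± 0.52 (SD) in N21, 7.65 ± 0.41 in N100, 6.45 ± 0.75 in H21, 6.62 ± 0.51 in H40, 6.82 ± 0.47 in H60 and 6.73 ± 0.58 in H100. All hypoxia minus all normoxia was -0.83 ± 0.15 (SE) on the log2 scale, a level 1.78-fold higher in normoxia. Without the H21 lung that stood apart, whose Slitrk6 value was the 4.71 above, the difference was -0.78, and with each lung array left out in turn it ran from -0.90 to -0.78. Against N21 alone the difference was -0.88 ± 0.25 for H21, -0.71 ± 0.25 for H40, -0.51 ± 0.23 for H60 and -0.60 ± 0.23 for H100. The H21 value without that array was -0.66. The groups share the N21 arrays, so these differences are not independent of each other. Hypoxia followed by 100% oxygen differed from 100% oxygen without hypoxia by -0.92.

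Ptprd had its lung means at 10.13 ± 0.24 in N21, 10.24 ± 0.41 in N100, 9.66 ± 0.33 in H21, 9.66 ± 0.31 in H40, 9.84 ± 0.42 in H60 and 9.76 ± 0.46 in H100. Its lowest, median and highest values were 9.80, 10.05 and 10.47 in N21 and 9.21, 10.45 and 10.50 in N100. After hypoxia they were 8.97, 9.72 and 10.10 in H21, 9.24, 9.67 and 10.09 in H40, 9.16, 9.86 and 10.68 in H60 and 9.12, 9.74 and 10.64 in H100. The 4 hypoxia medians were below both normoxia medians, 38 of 41 hypoxic lungs were below the normoxia median, and 2 were above the highest normoxic lung. The pooled difference was -0.45 ± 0.10 (SE), a level 1.37-fold higher in normoxia, and -0.43 without the H21 lung that stood apart, which holds the 8.97 above. For H21 against N21 the Ptprd difference was -0.47 with that lung and -0.38 without it.

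Ptprs, which is also a receptor for chondroitin sulfate proteoglycans on axons, varied less between lungs than Ptprd. Its lung means were 9.66 ± 0.13 in N21, 9.67 ± 0.17 in N100, 9.39 ± 0.19 in H21, 9.52 ± 0.12 in H40, 9.49 ± 0.17 in H60 and 9.46 ± 0.15 in H100. The values ran from 9.44 to 9.86 in N21, from 9.40 to 9.89 in N100, and after hypoxia from 9.001 to 9.57 in H21, 9.36 to 9.68 in H40, 9.16 to 9.73 in H60 and 9.29 to 9.86 in H100. Of 41 hypoxic lungs, 12 were below the lowest normoxic lung and 0 above the highest. The pooled difference was -0.20 ± 0.05 (SE), a level 1.15-fold higher in normoxia, and -0.19 without the H21 lung that stood apart, which holds the 9.001 above. For H21 against N21 the Ptprs difference was -0.26 with that lung and -0.21 without it. Ptprf, the LAR-type receptor that is not among the 8 genes, differed by -0.02 ± 0.05 (limma adjusted p = 0.998).

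The pooled lung differences of the other genes were -0.05 ± 0.07 for Slitrk1, 0.04 ± 0.05 for Slitrk2, 0.00 ± 0.07 for Slitrk3, 0.05 ± 0.06 for Slitrk4 and 0.04 ± 0.05 for Slitrk5. In the fit across all genes 3 of the 8 genes passed an adjusted p of 0.05, against 1.66% of all genes tested, and nothing is read from this count because the genes were picked from that contrast. The 3 differences kept their sign in each alternative run, from -0.88 to -0.80 for Slitrk6, -0.47 to -0.43 for Ptprd and -0.21 to -0.17 for Ptprs. Among the 38 lungs of the first submission run, 0 of the 8 genes passed, against 0.115% of all genes. Fewer cells that express a gene and less RNA per cell cannot be told apart in whole tissue.

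**Figure D2:**
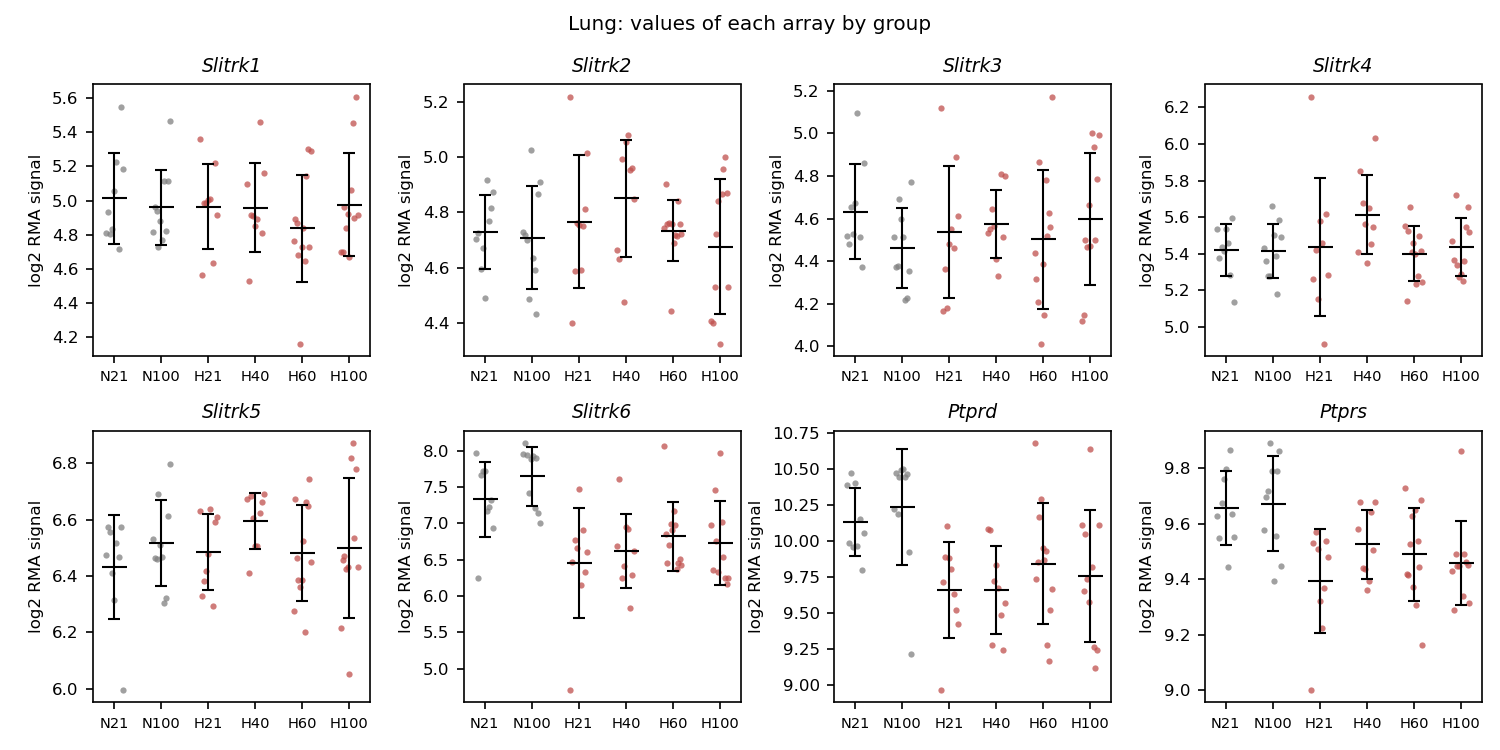
Log2 RMA signal (y axis) of each gene in every lung array by group; grey points are normoxia arrays, red points hypoxia arrays, the bar is the mean and the whiskers are 1 SD. Slitrk6, Ptprd and Ptprs sit lower in the 4 hypoxia groups, and the single H21 array at 4.71 is the lowest Slitrk6 value.

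Marker lists of the cells in which these genes could be expressed were read beside the lung differences. The lists were chosen with earlier results of these data known, so their lung p-values serve as a description. In that contrast 1.66% of all genes passed. The 10 mesenchymal markers averaged 10.42 to 10.88 per array in normoxia (median 10.73) and 10.27 to 10.91 in hypoxia (median 10.72). The 9 epithelial markers averaged 11.02 to 11.28 (median 11.12) in normoxia and 10.95 to 11.40 (median 11.23) in hypoxia. The 8 neuronal markers averaged 5.92 to 6.15 (median 6.06) in normoxia and 5.80 to 6.30 (median 6.13) in hypoxia, and the 4 markers of peripheral glia 5.78 to 6.35 (median 6.01) and 5.74 to 6.40 (median 6.04). The normoxia and hypoxia ranges overlapped for each of these lists. Single markers did change: the mesenchymal growth factor genes Wnt2 and Fgf10 fell by 0.51 ± 0.12 and 0.34 ± 0.08 (limma adjusted p = 0.0106 for each), the smooth muscle gene Tagln rose by 0.23 ± 0.06 (adjusted p = 0.0209), the neuronal gene Stmn2 rose by 0.30 ± 0.07 (adjusted p = 0.00717) and Aldh1l1, from the list of 4 astrocyte markers, rose by 0.22 ± 0.05 (adjusted p = 0.00431). In the first submission run Aldh1l1 passed (adjusted p = 0.0348) and the other 4 did not (adjusted p from 0.142 for Tagln to 0.488 for Wnt2). With the array of another tissue kept Tagln, Stmn2 and Aldh1l1 did not pass (limma adjusted p = 1.00, 0.337 and 0.376). The part of cell makeup in the Slitrk6, Ptprd and Ptprs differences was not tested.

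The other genes of the pathway were read from lists of partners, also chosen with earlier results of these data known. Their lung p-values are likewise a description, and 1.66% of all genes passed in lung. Of 13 other binding partners of LAR-type receptors, such as Il1rap, Ntrk3 and the Lrfn genes, 0 passed in lung (median 0.05, against 0.01 over all genes), and the smallest p belonged to Sdc2, a heparan sulfate proteoglycan, with -0.16 ± 0.06 (adjusted p = 0.151). Of 11 genes listed as partners on the cytoplasmic side, mainly the liprins, Trio and the caskins, 1 passed: Cdh2, which encodes the transmembrane adhesion protein N-cadherin and not a cytoplasmic protein, fell by 0.28 ± 0.08 (adjusted p = 0.0402; median of the list 0.04). Cdh2 did not pass with the array of another tissue kept (-0.24, adjusted p = 0.443), in the first submission run (-0.25, adjusted p = 0.507) or with every probe set tested (adjusted p = 0.0704). Of 11 neurexin and neuroligin type organizers 0 passed (median -0.02), and Lrrtm3 had the smallest p, with -0.14 ± 0.06 (adjusted p = 0.466).

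The Slitrk family is named after Slit and Ntrk, and the Robo genes were listed with them. Of these 8 Slit, Robo and Ntrk genes, 2 passed in lung, against 1.66% of all genes. This list too was chosen with earlier results of these data known. Ntrk2, the receptor of the neurotrophin BDNF, rose by 0.73 ± 0.08 (adjusted p = 4.26e-08), and Robo2, a receptor of Slit proteins, fell by 0.36 ± 0.08 (adjusted p = 0.00329). Robo2 did not pass in the first submission run, where its difference was -0.39 (adjusted p = 0.07). Slit2, the ligand of Robo2, differed by -0.26 ± 0.11 (adjusted p = 0.327). The median over these 8 genes was -0.05. In brain and eye, and for N100 against N21 and the slope over oxygen in each tissue, 0 genes of these lists passed.

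Brain and eye did not choose the genes, and there the members were tested. No member passed for all hypoxia minus all normoxia in either tissue, with 0 of 8 called by limma against 0.0853% of all genes in each tissue. In each, 0 of 8 had an unadjusted p under 0.05, against 3.18% of all genes in brain and 5.02% in eye. Slitrk6 differed by -0.11 ± 0.11 in brain (95% interval -0.33 to 0.10) and by 0.16 ± 0.10 in eye (-0.04 to 0.36), with an adjusted p of 1.00 in each. Brain Slitrk6 was among the dimmest 40% of genes, and the lung values, which chose the gene, were not tested against these. In brain 28 of 40 hypoxia arrays, and in eye 7 of 38, were below the normoxia median. The eye minus brain difference of the Slitrk6 change was 0.27 ± 0.15 (interval -0.03 to 0.57, unadjusted p = 0.0759, adjusted p = 1.00), so the tissues were not shown to differ. For that eye minus brain difference 0 of the 8 genes passed, against 0.015% of all genes. Each of the 4 hypoxia groups was also set against N21 alone in brain and in eye, and 0 of 8 genes passed in any of these, against 0.00502% of all genes for H21 in eye and 0% in the other 7.

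Brain Slitrk6 lay at 5.95 ± 0.47 (SD, n = 9) in N21 and 5.90 ± 0.24 (n = 9) in N100. After hypoxia it was 5.93 ± 0.28 (n = 9) in H21, 5.80 ± 0.40 (n = 9) in H40, 5.72 ± 0.46 (n = 11) in H60 and 5.81 ± 0.44 (n = 11) in H100. The lowest, median and highest normoxic values were 5.09, 5.95 and 6.77 in N21 and 5.50, 6.00 and 6.23 in N100, and all 4 hypoxia medians, from 5.79 to 5.95, lay inside both ranges. Eye Slitrk6 averaged 7.25 ± 0.50 in N21, 7.28 ± 0.31 in N100, 7.41 ± 0.42 in H21, 7.39 ± 0.43 in H40, 7.47 ± 0.30 in H60 and 7.40 ± 0.15 in H100. The eye hypoxia means were thus all above both normoxia means, by less than the SD of N21.

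Ptprd differed by 0.01 ± 0.07 in brain (interval -0.14 to 0.15) and by -0.11 ± 0.07 in eye (-0.25 to 0.03), and Ptprs by -0.03 ± 0.05 (-0.14 to 0.07) and 0.05 ± 0.07 (-0.09 to 0.20). The eye minus brain differences were -0.12 ± 0.10 for Ptprd and 0.09 ± 0.09 for Ptprs (adjusted p = 1.00 for each). In eye 11 of 38 hypoxia arrays lay below the lowest normoxia array for Ptprd and 2 above the highest. The remaining Slitrk genes differed by -0.07 (Slitrk2) to 0.03 (Slitrk5) in brain and by -0.09 (Slitrk4) to 0.04 (Slitrk1) in eye, with SEs of 0.03 to 0.09.

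**Figure D3:**
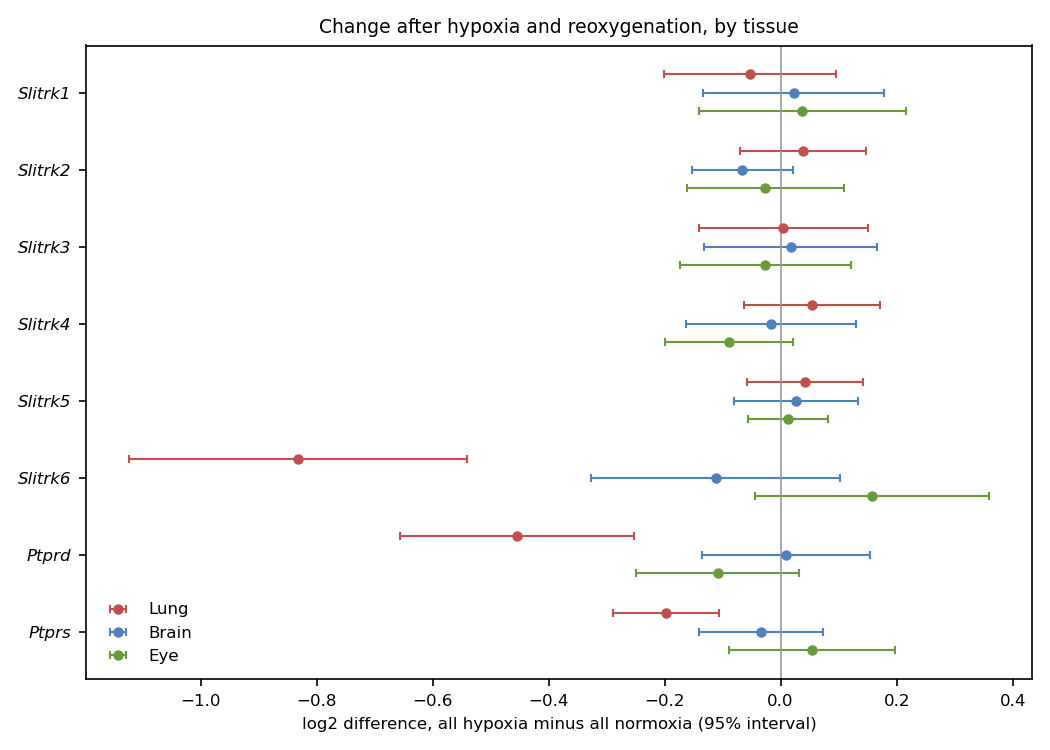
Difference between all hypoxia and all normoxia arrays (x axis, log2 scale) for each gene in lung, brain and eye; points are limma estimates and whiskers 95% intervals. Slitrk6, Ptprd and Ptprs in lung sit at -0.83, -0.45 and -0.20, values that chose the genes, and every brain and eye interval includes 0.

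The oxygen given afterwards was examined apart from the hypoxia. For N100 against N21, 0 of 8 genes passed with limma in any tissue, as did 0% of all genes. In lung Slitrk6 differed by 0.32 ± 0.24 (interval -0.16 to 0.80), Ptprd by 0.11 ± 0.17 and Ptprs by 0.02 ± 0.08. There 0 of 8 genes had an unadjusted p under 0.05, against 1.65% of all genes. The trend with reoxygenation oxygen among the 4 hypoxia groups, fitted as a straight line and given as the change from 21 to 100%, was 0.27 ± 0.22 for Slitrk6 (interval -0.17 to 0.71), 0.12 ± 0.15 for Ptprd and 0.03 ± 0.07 for Ptprs in lung. No slope passed for the 8 genes in any tissue, as for 0% of all genes.

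Slitrk1 in brain was the gene with the lowest unadjusted p in these oxygen comparisons. Its brain means were 8.88 ± 0.37 (SD, n = 9) in N21, 8.89 ± 0.34 (n = 9) in H21 and 8.91 ± 0.36 (n = 9) in H40, and 9.14 ± 0.24 (n = 9) in N100, 9.19 ± 0.21 (n = 11) in H60 and 9.14 ± 0.16 (n = 11) in H100. The 3 groups given 60 or 100% oxygen thus had higher means than the others, with overlapping ranges: their lowest arrays, at 8.78, 8.89 and 8.89, lay above the lowest of the other groups, at 8.16, 8.24 and 8.27, and below their medians of 8.98, 9.01 and 9.004. The slope from 21 to 100% was 0.28 ± 0.12 (unadjusted p = 0.0195, adjusted p = 0.753), and 6.45% of all genes had an unadjusted p under 0.05 for that slope. Against N21 the differences were 0.26 ± 0.13 for N100 (p = 0.0538), 0.31 ± 0.12 for H60 (p = 0.0161) and 0.26 ± 0.12 for H100 (p = 0.0429), with adjusted p values of 0.949, 0.999 and 0.997, and these share the N21 arrays. None passed. With array quality weights the Slitrk1 values in brain were lower, at 0.13 for the slope and, against N21, 0.16 for N100, 0.14 for H60 and 0.11 for H100.

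In eye, Slitrk1 averaged 6.23 ± 0.33 in N21 and 6.56 ± 0.22 in N100, a difference of 0.33 ± 0.15 (unadjusted p = 0.0294, adjusted p = 0.94). That difference was 0.14 with the submission run as a block and 0.17 in the first run; the third run held 3 N21 and 0 N100 eye arrays. Eye Slitrk1 averaged 6.55 ± 0.20 in H60 (0.32 ± 0.15 against N21, p = 0.0359, adjusted p = 0.902). Its eye slope was 0.11 ± 0.13 (interval -0.16 to 0.37). In brain, Slitrk5 differed by 0.18 ± 0.09 for N100 (p = 0.0495) and 0.20 ± 0.08 for H60 (p = 0.0207), and Slitrk2 by 0.16 ± 0.07 for N100 (p = 0.0295), with adjusted p values from 0.949 to 0.999. The Slitrk5 values moved to 0.11 for N100 with the submission run as a block, or 0.12 in the first run. For H60 the Slitrk5 value moved to 0.11 with array quality weights. In brain too the third run held 3 N21 and 0 N100 arrays. The N100 differences of brain Slitrk1 and Slitrk2 carry the same limit. The share of all genes with an unadjusted p under 0.05 in these comparisons was 3.22% to 5.40%, against 1 or 2 of the 8 members, and no member passed.

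**Figure D4:**
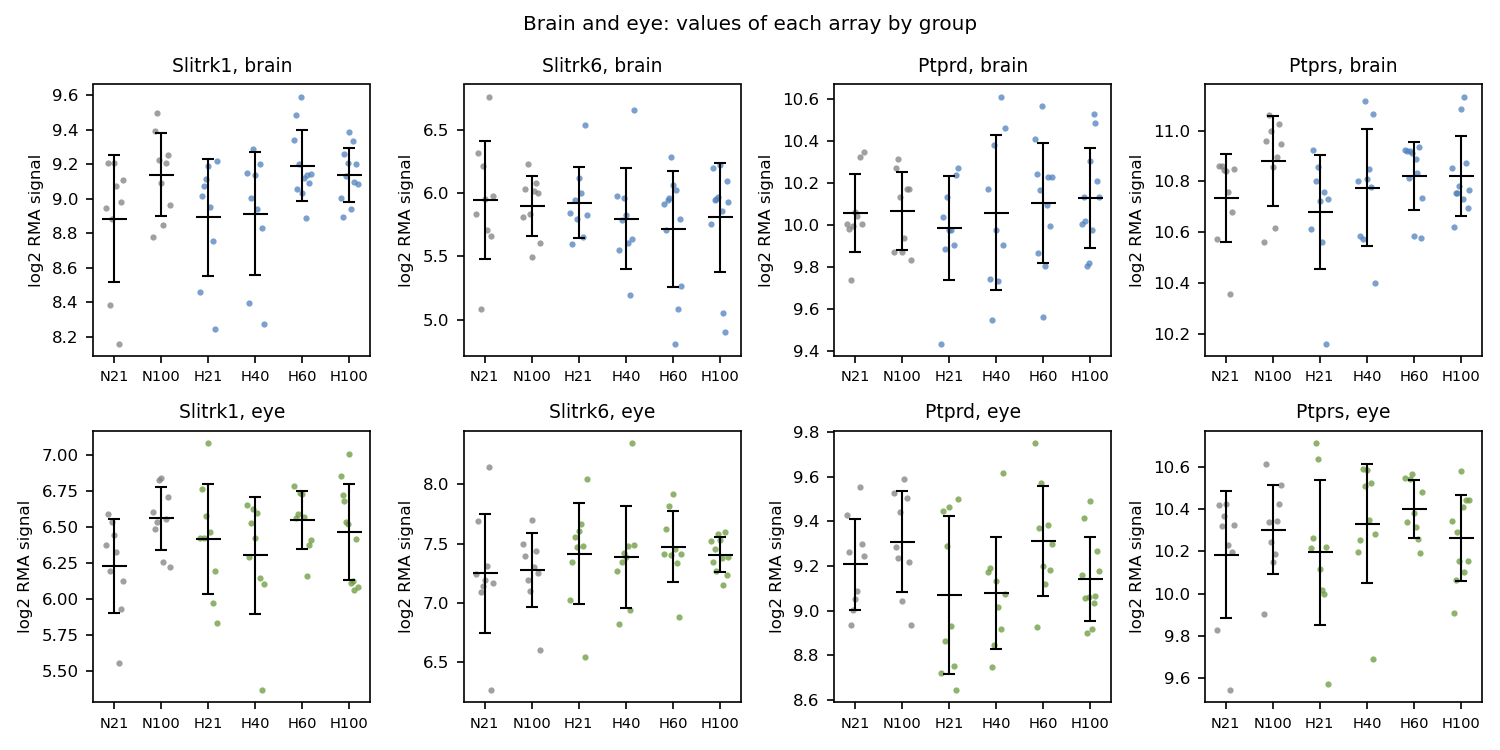
Log2 RMA signal (y axis) of Slitrk1, Slitrk6, Ptprd and Ptprs in every brain (top, blue) and eye (bottom, green) array by group; grey points are normoxia arrays, the bar is the mean and the whiskers are 1 SD. The groups overlap in every panel, and brain Slitrk1 means run from 8.88 in N21 to 9.19 in H60.

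Whether a Slitrk gene and a receptor varied together between animals of a group was asked over the arrays of each tissue, after the group mean and the submission run had been removed from each gene. Of the 36 pairs (6 Slitrk genes, 2 receptors and 3 tissues), 22 passed an adjusted permutation p of 0.05 for Pearson's r and 16 for Spearman's rho. Correlations of this size were common on these arrays: over all 19936 other genes the median size of r with Ptprd in lung was 0.276, and 16 of the 22 passing pairs were matched or passed in size by more than 10% of all genes. Passing alone therefore describes these arrays and does not mark a pair as particular to the partner genes. For 4 of the 22 pairs the share was under 5%. These were Slitrk5 and Slitrk1 with Ptprs in brain, and Slitrk6 with Ptprd and with Ptprs in lung.

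In lung 8 of 12 pairs passed, with p adjusted over the 36 pairs. Without the H21 lung that stood apart 5 did, with p adjusted over the 12 lung pairs alone. The counts therefore rest on different adjustments. Slitrk6 went with Ptprd (r = 0.64, rho = 0.52, n = 60, adjusted permutation p = 9e-05 for r), and 2.84% of all genes had an r with Ptprd at least as large in size. The value was 0.63 without the 2 lungs farthest from the Ptprd median, 0.75 in the first submission run and 0.55 without the H21 lung that stood apart (adjusted permutation p = 0.00012). Slitrk6 also went with Ptprs (r = 0.46, rho = 0.32, adjusted permutation p = 0.0012), but the r of 0.27 without the 2 farthest lungs did not pass (adjusted permutation p = 0.0894). Without the H21 lung alone it was 0.33 (adjusted permutation p = 0.0271). Slitrk5, Slitrk2 and Slitrk1 ran against Ptprd, with r of -0.52, -0.50 and -0.41 (rho -0.54, -0.44 and -0.39; adjusted permutation p = 0.000216, 0.00048 and 0.00403). These 3 kept their sign and passed without the 2 farthest lungs and without the H21 lung. Their r over all lungs was matched in size by 11.5%, 13.9% and 27.0% of all genes. Slitrk1, Slitrk2 and Slitrk3 also ran against Ptprs with r of -0.30, -0.33 and -0.36, and none of the 3 passed without the 2 farthest lungs, or without the H21 lung, where r was -0.22, -0.21 and -0.23 (adjusted permutation p = 0.161, 0.161 and 0.148). The remaining lung pairs, which did not pass, had no settled sign: without the H21 lung Slitrk3 with Ptprd moved from -0.08 to 0.11, Slitrk4 with Ptprd from -0.22 to 0.00 and Slitrk4 with Ptprs from -0.12 to 0.11. Without the 2 farthest lungs Slitrk3 with Ptprd was 0.03, Slitrk4 with Ptprs 0.13 and Slitrk5 with Ptprs 0.03. The Slitrk2 values come from the probe set that did not vary with the other one in lung. Slitrk1 to Slitrk3 were among the dimmest 40% of genes in lung.

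In brain 10 of 12 pairs were positive, and the share of all genes with a positive r was not counted. Of the 12 pairs 9 passed, 2 of them negative. The largest was Slitrk5 with Ptprs (r = 0.74, rho = 0.69, n = 58, adjusted permutation p = 9e-05), which 1.14% of all genes matched in size, followed by Slitrk1 with Ptprs (r = 0.67, rho = 0.63, 3.40% of genes). Both passed without the 2 farthest arrays (0.68 and 0.63) and in the first submission run (0.65 and 0.61). Slitrk3, the Ptprd partner of inhibitory synapses, went with Ptprd at r = 0.56 (rho = 0.48, 7.03% of genes) and 0.61 in the first run. Slitrk4 and Slitrk6 ran against Ptprs (r = -0.30 and -0.40), but in the first run those values were 0.03 and 0.04. Slitrk5 with Ptprd passed at r = 0.36, but its r was 0.04 with the run not removed.

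In eye 5 of 12 pairs passed. Slitrk3 went with Ptprd (r = 0.48, rho = 0.43, n = 56, adjusted permutation p = 0.00103) and against Ptprs (r = -0.45, rho = -0.45, adjusted permutation p = 0.00166), and both passed without the 2 farthest arrays (0.44 and -0.39) and in the first run (0.52 and -0.51). Slitrk6 with Ptprd (0.31), Slitrk6 with Ptprs (-0.35) and Slitrk1 with Ptprs (0.32) passed over all eye arrays but not in the first run, where they were -0.04, 0.06 and 0.03. Of all genes, 27.9%, 26.3% and 31.3% matched these values over all eye arrays in size. For Slitrk3 with Ptprd and with Ptprs the shares were 7.54% and 14.9%.

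**Figure D5:**
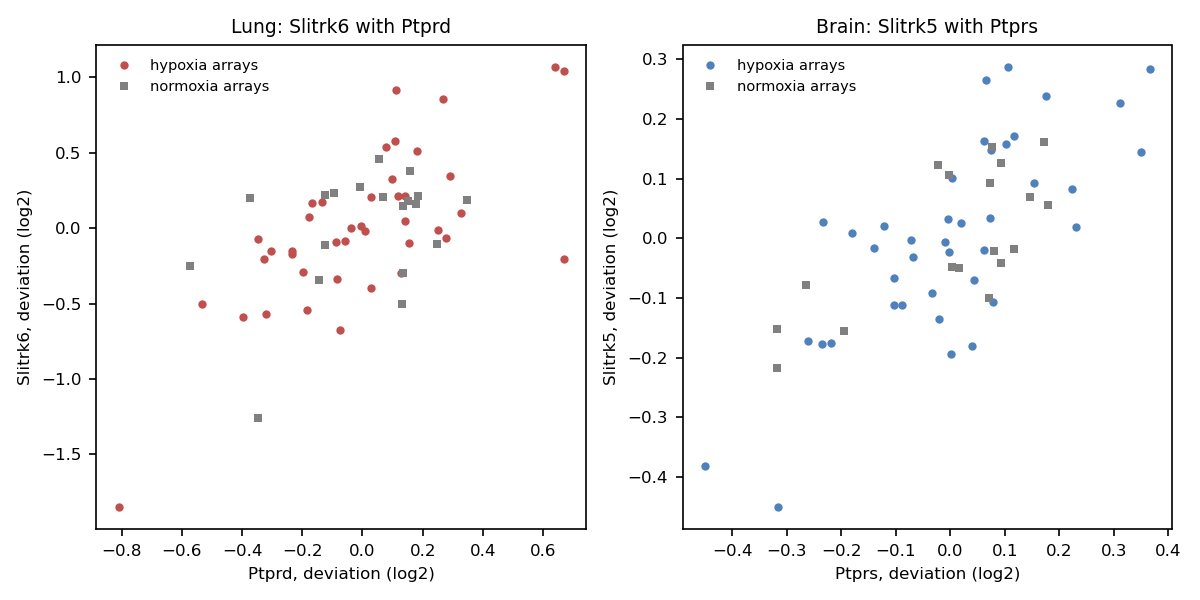
Deviation of each array from its group and submission run (log2) for Slitrk6 against Ptprd in lung (left) and Slitrk5 against Ptprs in brain (right); circles are hypoxia arrays and grey squares normoxia arrays. Both clouds rise together (r = 0.64 and 0.74), and the lowest point on the left is the H21 lung that stood apart.

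The genes most like each member were taken by the r of the same deviations, over all genes of the tissue. In lung Slitrk6 was most like Arhgap28 (r = 0.82), the mesenchymal growth factor gene Fgf10 (0.82) and Plcb1 (0.81), and without the 2 farthest lungs these were 0.74, 0.69 and 0.70. Ptprd in lung was most like Robo2 (0.94), Slit2 (0.92) and Ptprm (0.88). Robo2 and Slit2 belong to the list of Slit, Robo and Ntrk genes above, and their r with Ptprd exceeded that of Slitrk6, at 0.64. In eye Slitrk6 was most like Rb1cc1 (0.88), Pibf1 (0.87) and Ift74 (0.86), and Ptprd like Pcdh7 (0.79), Nktr (0.77) and Nfat5 (0.77).

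In brain the likest gene was Adar for Slitrk1 (r = 0.91), Dgcr8 for Slitrk2 (0.64), Pabpc1 for Slitrk3 (0.84), Elavl4 for Slitrk4 (0.88), Tecpr2 for Slitrk5 (0.83) and Mgat4c for Slitrk6 (0.81). For Ptprd it was the calcium channel gene Ryr2 (0.92), followed by Cdc42bpa and Lrp1b (0.92 and 0.91), and for Ptprs it was Epb41l1 (0.89), followed by Tsc2 and Agap2 (0.87 each). Epb41l1 was also among the 3 likest genes of Slitrk5, at 0.83.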

How the data were processed

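RNA of 177 samples was hybridised to single-colour Affymetrix arrays from 10 ng each. The deposited values are on a log2 scale, and the submitters' processing notes name RMA as the authors' method. Array software and its version are not given in the sources used here, and the 3 tissues had separate medians (6.25 in lung, 6.07 in brain, 6.35 in eye), so they were treated as normalised separately. Of 34760 probe sets, 21640 had 1 gene symbol, 1321 several and 11799 none, and only the first were used.

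For each tissue the 6 groups were fitted together with limma 3.58.1 (R 4.3.3), moderated tests were two-sided, and p-values were adjusted with Benjamini-Hochberg over 19937 genes (threshold 0.05). The 3 arrays with another tissue's profile were left out. Residual correlations used 100000 permutations (numpy 2.4.6), adjusted over the 36 pairs. Where the H21 lung that stood apart was left out, they were adjusted over the 12 lung pairs alone. The smallest p they can give is 1e-05. The labels do not tie arrays to animals, so p-values measure the spread between samples. Scripts were tested on simulated data. All 8 genes were named. Of each partner and pathway list the called genes, or otherwise the gene of the smallest p, were named, and of the marker lists only the genes called in lung. The 3 likest genes were named, the first alone for most members in brain. The members and lists were chosen with earlier results of these data known. The order of the sample records falls into runs of 113, 20 and 44, called submission runs here; the labels do not state them. Alternatives were: arrays kept, run as a block, the first run alone, array weights, replicate block, a filter on the dimmest 40%, renewed quantile normalisation, every probe set, and sex read from the arrays as a covariate.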

Additional observations from a re-analysis of the deposited data

Results flagged for a closer look

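Single arrays stood apart from their group in 14 of the 104 gene and group combinations of 4 to 10 arrays, by Dixon's gap criterion. Its nominal rate is about 1 in 20 for independent, normally distributed values. The combinations share arrays and the rate over all genes was not counted, so no excess is read from the 14. The causes were not tested. In lung, Slitrk6 was 4.71 in H21 replicate 1 (next lowest 6.16), the array least like the other lungs. In N100 replicate 10 Ptprd was 9.21 (next 9.92) and Slitrk1 5.46 (next 5.11), and Slitrk5 was 5.995 in N21 replicate 9 (next 6.32).

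In brain, H21 replicate 1 was low for Ptprd, at 9.43 (next 9.89), and for its partner Slitrk3, at 7.53 (next 8.23). H21 replicate 8 was low for Ptprs, at 10.16 (next 10.56), and for Slitrk5, at 8.22 (next 8.71). Slitrk2 was 8.12 in H40 replicate 5 (next 7.94), and Slitrk5 was 8.25 in H40 replicate 10 (next 8.74). In eye, H40 replicate 8 was low for Ptprs, at 9.69 (next 10.20), and for Slitrk1, at 5.37 (next 6.10), and high for Slitrk6, at 8.34 (next 7.48). That array was the least like the mean eye profile, with a correlation of 0.9695 against 0.9697 for the next lowest and a median of 0.989. Slitrk2 was 7.07 in N100 replicate 3 (next 7.48).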

How the results depend on the processing

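In none of the 17 tested comparisons did any of the 8 genes pass under any of the 9 alternatives. The lung count of 3 fell to 0 in the first submission run, which has fewer arrays (38 of 60). It fell to 2 with the array of another tissue kept. The share of all genes that passed fell too, from 1.66% to 0.115% and 0.477%. Of the 142 alternative values of the 16 pooled brain and eye differences, 132 kept their sign and 10, all in brain and none past the threshold, did not: Slitrk1 (-0.0182 with the array of another tissue kept and -0.0195 with array weights), Slitrk3 (-0.0505 with that array), Slitrk5 (-0.0444 with that array), Slitrk4 (0.0351 in the first run and 0.011 with weights) and Ptprd (-0.0278 with the run as a block, -0.0411 in the first run, -0.0539 with weights and -0.0059 with the replicate block). In lung, N100 minus N21 turned for Ptprd (-0.0206 with the run as a block) and Ptprs (-0.0052 in the first run), and the oxygen slope of Ptprs turned (-0.0102 with the array of another tissue kept and -0.0272 with weights). The cause was not tested.

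Of the 36 pairs, 22 passed; 13 did without the 2 farthest arrays, 19 in the first run and 23 with the run not removed. In the first run Slitrk4 with Ptprs (0.0305) and Slitrk6 with Ptprs (0.0437) turned in brain, as did Slitrk6 with Ptprd (-0.0351) and with Ptprs (0.0594) in eye. Of the 12 lung pairs 8 passed, and 5 without H21 replicate 1, adjusted over these 12 pairs alone. That alternative was chosen after seeing the data, as was leaving out each lung array in turn. Refitted without that array, the 8 list genes named as called in lung (Wnt2, Fgf10, Tagln, Stmn2, Aldh1l1, Cdh2, Ntrk2 and Robo2) passed again. They were named because they had passed, and 412 of 19937 genes passed in that refit, so nothing is read from this.

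Replicate numbers recur in the groups. Deviations of same-numbered arrays correlated at a median of 0.13 (lung), 0.13 (brain) and 0.03 (eye). In that order 77 of 139, 73 of 134 and 52 of 131 pairs were over 0.1. Differently numbered arrays had medians of -0.02, -0.02 and -0.03, so same-numbered arrays were somewhat more alike, for a reason that was not tested. The labels state no pairing, and the numbers were not taken to pair samples. The Slitrk and receptor correlations were not rerun with the replicate number removed. With the replicate block 0 of the 8 genes passed in the 17 tested comparisons. For hypoxia in lung 3 passed, against 2.09% of all genes. Nothing is read from that count, because this contrast chose the genes. The other Slitrk2 probe set moved its mean levels down in each tissue.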
